A study of Mus musculus with 2 samples.

Results

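Reads of the tropomyosin gene family were examined in mouse heart, gene by gene and exon by exon. The family holds 4 genes, Tpm1, Tpm2, Tpm3 and Tpm4, out of 15410 annotated genes with at least 1 read. They were chosen by gene name, and every transcript model given to them was kept, 62 of 64851 models in replicate 1 and 72 of 83878 in replicate 2. The series is a single group of 2 long-read RNA libraries from heart tissue of male B6CASTF1/J mice, a first-generation cross of C57BL/6J and CAST/EiJ, aged 18 to 20 months. Each library was made from 2 µg of RNA. The labels name them as separate biological replicates, yet both carry the same donor identifier and the same description, so the spread between them may be technical. There was no treatment and no control, so what can be described is the make-up of the family and the difference between these libraries. The reads of the 2 parental alleles were not separated.

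Tropomyosin is a coiled-coil protein that lies along the actin filament. In heart and skeletal muscle it acts with troponin to open and close the myosin binding sites on actin as calcium rises and falls, and in other cells different tropomyosins mark different sets of actin filaments. Across the family, several proteins arise through alternative first exons (1a for long forms, 1b for short forms), alternative second and sixth exons, and alternative last exons. Not every gene has each choice. In the annotated exons used here only Tpm1 has alternative second exons, and Tpm4 has 1 coding transcript. In Tpm1, the last exons 9a and 9b mark the striated muscle form, which also holds exon 2b, though exon 2b alone does not mark it. Exon 2a is the smooth muscle second exon. The ending 9d belongs to smooth muscle and non-muscle forms, and 9c to brain forms. Tpm1 is the main tropomyosin of the mouse heart, Tpm2 the beta form of slow skeletal and smooth muscle, Tpm3 the gene of slow skeletal and cytoplasmic forms, and Tpm4 a gene of cytoplasmic forms, whose annotated coding transcript in mouse starts with exon 1b.

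The exons that tell the Tpm1 forms apart are shown first, because the isoform results turn on them. They come from the GENCODE M21 transcripts in mm10, coding bases only, 5′ to 3′ on the minus strand of chromosome 9. Exon 2a lies at chr9:67048124-67048249 and exon 2b at chr9:67047786-67047911. Each has 126 bases and 47.6% of them are identical, and capitals mark the bases that differ.
Tpm1 exon 2a: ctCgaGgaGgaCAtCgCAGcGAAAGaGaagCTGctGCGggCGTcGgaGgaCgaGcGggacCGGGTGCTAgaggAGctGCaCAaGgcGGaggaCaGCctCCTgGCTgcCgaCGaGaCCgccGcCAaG
Tpm1 exon 2b: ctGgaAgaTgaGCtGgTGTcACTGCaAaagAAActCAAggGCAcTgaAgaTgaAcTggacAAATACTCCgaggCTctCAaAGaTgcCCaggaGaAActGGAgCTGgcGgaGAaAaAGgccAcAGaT

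Exon 6a lies at chr9:67032466-67032541 and exon 6b at chr9:67031951-67032026. Both have 76 bases, of which 56.6% are identical, and capitals again mark the bases that differ.
Tpm1 exon 6a: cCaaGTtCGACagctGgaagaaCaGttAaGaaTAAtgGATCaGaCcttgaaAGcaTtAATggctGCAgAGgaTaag
Tpm1 exon 6b: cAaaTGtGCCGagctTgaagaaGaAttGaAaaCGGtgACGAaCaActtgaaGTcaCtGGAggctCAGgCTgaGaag

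The alternative ends share no such alignment and differ in length. Exon 9a (chr9:67029664-67029742, 79 bases) is followed in the striated form by exon 9b, which adds a single coding base before the stop codon. Exon 9d (coding part chr9:67023359-67023441, 83 bases) carries its own stop codon, shown in capitals.
Tpm1 exon 9a: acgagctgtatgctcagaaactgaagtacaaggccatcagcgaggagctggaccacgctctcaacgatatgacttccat
Tpm1 exon 9d: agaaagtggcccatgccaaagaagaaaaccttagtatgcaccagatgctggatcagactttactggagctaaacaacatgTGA

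Nearly all tropomyosin reads came from Tpm1. The gene had 8184 reads in replicate 1 and 10894 reads in replicate 2, which is 11880 and 10851 reads per 1000000 mouse reads (CPM). By number of reads it was the 4th gene of the first library and the 7th of the second. A read stands for a sequenced cDNA molecule whatever its length, so CPM was not divided by transcript length; whether longer molecules were read less often was not tested here. The gene lies on chromosome 9 from 67022590 to 67049406 (mm10, minus strand).

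The other members had fewer reads by 73.1-fold or more. Tpm4 (chromosome 8, 72134975 to 72153142, plus strand) had 112 reads in replicate 1 and 126 reads in replicate 2, or 163 and 125 CPM. Tpm3 (chromosome 3, 90072649 to 90100902, plus strand) had 47 and 54 reads, or 68.2 and 53.8 CPM. Tpm2 (chromosome 4, 43514711 to 43523765, minus strand) had 13 and 20 reads, or 18.9 and 19.9 CPM. All of these lie above the 4.36 and 2.99 CPM that a count of 0 allows, taken as 3 reads in the library, but the Tpm2 values rest on very few molecules.

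The order Tpm1, Tpm4, Tpm3, Tpm2 was the same in the 2 libraries. As a share of the family's 8356 and 11094 reads, Tpm1 held 97.9% (95% Clopper-Pearson interval 97.6 to 98.2) in replicate 1 and 98.2% (97.9 to 98.4) in replicate 2. Tpm4 held 1.34% (1.10 to 1.61) and 1.14% (0.947 to 1.35), Tpm3 0.562% (0.414 to 0.747) and 0.487% (0.366 to 0.635), and Tpm2 0.156% (0.0829 to 0.266) and 0.180% (0.110 to 0.278). The intervals, which cover counting error only, did not overlap between any neighbours in this order. Tpm1 reads outnumbered Tpm4 reads 73.1-fold in replicate 1 and 86.5-fold in replicate 2, and Tpm4 outnumbered Tpm3 2.38-fold and 2.33-fold. The 4 genes together made up 1.21% and 1.10% of mouse reads.

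**Figure D1:**
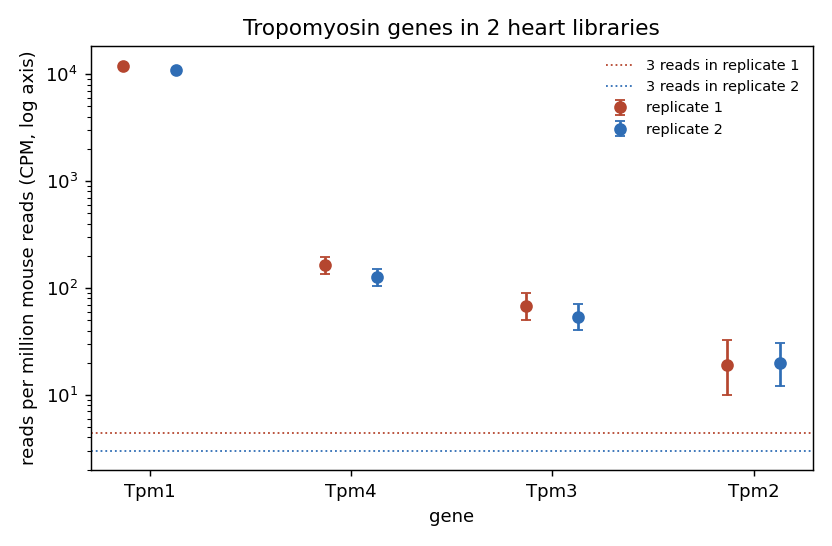
Reads per 1000000 mouse reads (log axis) of each tropomyosin gene in replicate 1 and replicate 2, with 95% counting intervals; the dotted lines stand at 3 reads in each library. Tpm1 stands near 11880 and 10851 CPM, far above Tpm4, Tpm3 and Tpm2, whose order is the same in each library.

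Between the libraries, Tpm1 was called and the other 3 genes were not. An exact two-sided binomial test set a gene's reads against the libraries' shares of mouse reads. It was run over 8836 annotated genes whose reads in the 2 libraries summed to 10 or more, with Benjamini-Hochberg adjustment, and sets a difference against counting error only. Tpm1 had a log2 ratio of replicate 1 over replicate 2 of 0.13 (0.09 to 0.17, adjusted p = 8.53e-08, exact binomial test). Its ratio was 0.08 with the trimmed mean (TMM) factors of edgeR (adjusted p = 0.00435, same exact test) and 0.07 with DESeq2 size factors (adjusted p = 0.0302), both below that interval. Of all genes tested, 297 (3.36%) were called at 0.05, 177 (2%) higher and 120 (1.36%) lower in replicate 1. With TMM factors the split was 134 higher and 158 lower, and with DESeq2 size factors 125 and 166. The more reads a gene has, the smaller the ratio that this test calls. At a minimum of 50 reads 338 of 4032 genes were called. Of the 3 genes closest to Tpm1 in level, Fabp3 (log2 -0.36) and Cox4i1 (log2 -0.22) were called with larger differences. The third, Atp5b, had 12055 and 12076 CPM. Synthetic spike-ins were put to the same exact test, but against the spike-ins' own shares of reads and with adjustment over 27 spike-ins. Of these 27, 4 were called too, with log2 ratios from -0.25 to 0.23. The Tpm1 value lies in this range, though its ratio has a different baseline. Tpm2 had a ratio of -0.07 (-1.21 to 1.00), Tpm3 of 0.34 (-0.25 to 0.93) and Tpm4 of 0.37 (-0.01 to 0.75), with adjusted p-values of 1, 0.773 and 0.406 in the same exact test. At this depth a change of Tpm2 by about 1 log2 unit in either direction could not be seen.

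The make-up of Tpm1 reads was that of the striated muscle form. Tpm1-205, whose chain is 1a, 2b, 3, 4, 5, 6b, 7, 8, 9a and 9b and whose annotated coding length is 852 nt, had 7798 of 8184 reads (95.3%, 94.8 to 95.7) in replicate 1 and 10346 of 10894 (94.97%, 94.5 to 95.4) in replicate 2. The next known transcript, Tpm1-207, which joins exon 8 to 9b without 9a and has an annotated coding length of 861 nt, had 50 and 68 reads (0.611% and 0.624%). Their shares did not differ detectably between the libraries (adjusted p = 0.907 and 1, Fisher's exact test, described with the isoform comparison).

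Forms with smooth muscle or non-muscle exons were present at a few reads each. Tpm1-215 (1a, 2a and 9d), the annotated form with the smooth muscle second exon, had 7 and 4 reads. Tpm1-211 (1b and 9d), a short non-muscle form, had 5 and 9 reads. Neither differed detectably between the libraries (adjusted p = 0.821 and 1, Fisher's exact test), and each stayed under 0.1% of Tpm1 in replicate 1 and in replicate 2. Of 21 annotated Tpm1 transcripts 6 had reads, and the remaining pair of these, Tpm1-201 and Tpm1-219, lay between 0 and 5 reads in a library.

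Read by exon rather than by transcript, each Tpm1 choice fell almost wholly on one side. Exon 1a was held by 7929 of 7938 reads with an annotated first exon in replicate 1 (99.9%) and by 10538 of 10557 in replicate 2 (99.8%), which leaves 9 and 19 reads with exon 1b. Exon 2b was held by 7952 of 7960 reads and 10565 of 10571, exon 2a alone by 7 and 6, and a single read in replicate 1 held both exons with the intron between them. Exon 6b was held by 8099 of 8100 reads and by all 10779. No Tpm1 read held exon 6a without 6b, which allows a share of up to 0.0370% in replicate 1 and 0.0278% in replicate 2, and a single read in replicate 1 held both.

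At the 3′ end the second choice was a skip of exon 9a and not the use of exon 9d. Exon 9a has 79 bases, which is not a multiple of 3, so the skip changes the reading frame in exon 9b. Tpm1-207, with the skip, has an annotated coding length of 861 nt, against 852 nt for Tpm1-205. After exon 8, exon 9a followed in 8079 of 8143 reads (99.2%, 99.0 to 99.4) in replicate 1 and in 10754 of 10837 (99.2%, 99.1 to 99.4) in replicate 2. Exon 9b followed directly in 52 reads (0.639%, 0.477 to 0.837) and 70 reads (0.646%, 0.504 to 0.815). Exon 9d followed in 12 reads (0.147%, 0.0762 to 0.257) and 13 reads (0.120%, 0.0639 to 0.205), less often than the skip by intervals that do not overlap. The brain exon 9c was not found, 0 of 8143 and 0 of 10837 reads, which allows up to 0.0368% and 0.0277%.

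Because a long read holds both ends of a molecule, the choices could also be read together. Exon 2a was joined to 9d in 7 reads in replicate 1 and 4 in replicate 2, and to 9a in 0 and 2 reads. The last combination is that of a cardiac form described in human heart as TPM1-kappa, a striated form with the smooth muscle second exon. Of the 2 reads in replicate 2, 1 had 9a spliced to 9b and 1 ended in a long exon that starts at 9a. Exon 1b was joined to 9d in 5 and 9 reads and to 9a in 4 and 10 reads. Of the reads with 1b and the striated ending, 3 and 10 carried the chain 1b, 3, 4, 5, 6b, 7, 8, 9a and 9b, which is not that of a complete annotated transcript. The deposited class for this chain was an incomplete match in replicate 1 and a new model in replicate 2. In replicate 1, 1 more read also held an unannotated exon upstream of 1b.

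**Figure D2:**
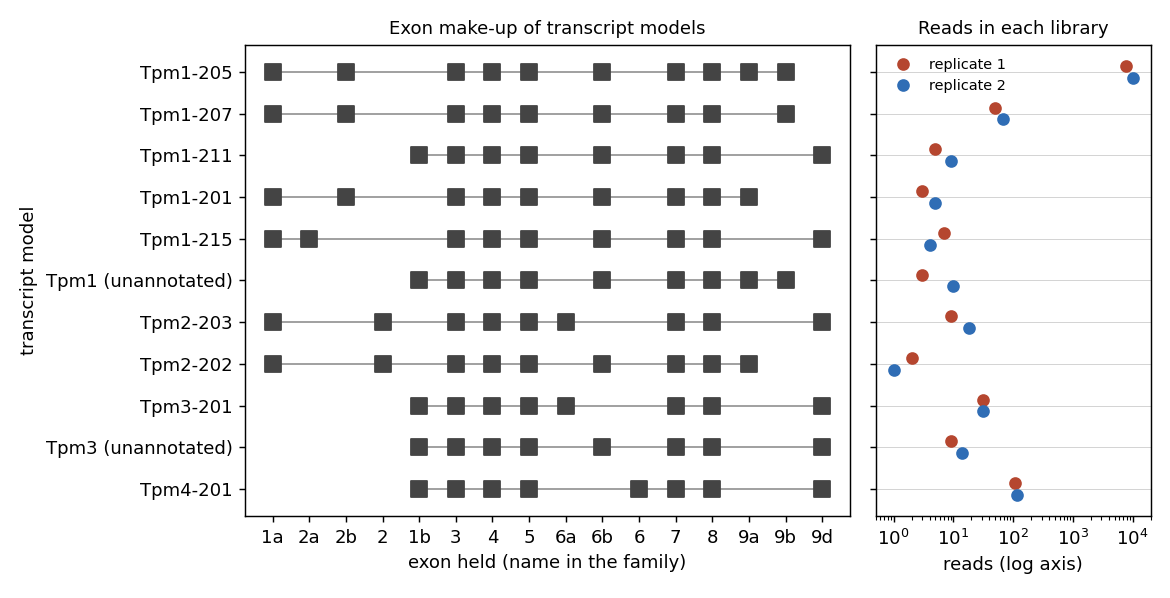
Left, exons held (squares) by each known tropomyosin transcript with at least 3 reads in all and by an unannotated chain each of Tpm1 and Tpm3; right, reads of each in replicate 1 and replicate 2 on a log axis. Tpm1-205 has 7798 and 10346 reads, while the Tpm1 chains with exon 1b, 2a or 9d have between 3 and 10.

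In Tpm2 the reads were mainly of the smooth muscle and non-muscle form. Tpm2-203 (6a and 9d) had 9 of 13 reads (69.2%, 38.6 to 90.9) in replicate 1 and 18 of 20 (interval 68.3 to 98.8%) in replicate 2. Tpm2-202, with 6b and 9a, had 2 and 1 reads. The striated ending with 6b and 9a, that of the skeletal muscle beta form, had 3 of 12 reads and 1 of 19 after exon 8. In every Tpm2 read that held both sites, 6a went with 9d and 6b with 9a. With so few reads the shares of the 2 libraries could not be told apart, since their intervals overlapped widely.

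Tpm3 reads were of the short cytoplasmic form and split at exon 6. Exon 1b was held by 46 of 46 reads in replicate 1 and 51 of 52 in replicate 2, and 9d followed exon 8 in 43 of 46 and 47 of 53. The striated transcript Tpm3-205, with 1a, 9a and 9b, had 0 and 1 reads, and Tpm3-202, a short form with 6b in which 9a is spliced to 9d, had 1 and 1. The sixth exon was 6a in 34 of 46 reads (73.9%, 58.9 to 85.7) and 34 of 53 (64.2%, 49.8 to 76.9), and 6b in 11 (23.9%, 12.6 to 38.8) and 19 (35.8%, 23.1 to 50.2). In Tpm1, by contrast, 6b was held by nearly every read, and the intervals of the 2 genes did not overlap.

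The exon 6b reads of Tpm3 were mostly on a chain with no annotated transcript. The 1b, 6a and 9d form is Tpm3-201, with 31 reads in each library (66.0%, 50.7 to 79.1, and 57.4%, 43.2 to 70.8). The same chain with 6b in place of 6a had 9 reads (19.1%, 9.15 to 33.3) in replicate 1 and 14 reads (25.9%, 14.96 to 39.7) in replicate 2. All of its introns are annotated and it was found in each library, and its share did not differ detectably between them (Fisher's exact test, two-sided, p = 0.481, adjusted p = 0.991). New spliced models in all made up 29.8% (17.3 to 44.9) and 35.2% (22.7 to 49.4) of Tpm3 reads, against 0.868% (0.678 to 1.09) and 1.12% (0.931 to 1.34) of Tpm1 reads. Over all annotated genes such models made up 6.79% of reads in replicate 1 and 6.36% in replicate 2, so Tpm1 lay below that share. The exons concerned lie on the plus strand of chromosome 3, 6a at chr3:90088401-90088476 and 6b at chr3:90089048-90089123, with 51.3% of 76 bases identical and capitals where they differ.
Tpm3 exon 6a: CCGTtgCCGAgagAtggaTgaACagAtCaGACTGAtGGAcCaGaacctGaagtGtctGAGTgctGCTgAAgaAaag
Tpm3 exon 6b: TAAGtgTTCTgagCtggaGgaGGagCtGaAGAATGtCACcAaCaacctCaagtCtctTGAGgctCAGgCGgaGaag

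Over exons 3, 4, 5, 7 and 8 (456 coding bases), which the leading forms of all 4 genes share, Tpm1 had 78.5% of bases identical to Tpm2, 81.1% to Tpm3 and 80.7% to Tpm4, above the 56.6% between its own exons 6a and 6b. Across genes the sixth exons were closer to their counterparts than to each other. Tpm3 exon 6b shared 75.0% of bases with Tpm1 exon 6b and 47.4% with Tpm1 exon 6a, while Tpm3 exon 6a shared 65.8% with Tpm1 exon 6a and 53.9% with 6b. The single sixth exon of Tpm4 shared 71.1% with Tpm1 exon 6b and 53.9% with exon 6a. Tpm4 itself had a simple make-up. Its coding transcript Tpm4-201 (1b and 9d) held 106 of 112 reads (94.6%, 88.7 to 98.0) in replicate 1 and 116 of 126 (92.1%, 85.9 to 96.1) in replicate 2. Its 6 new spliced models had 4 and 5 reads in all.

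**Figure D3:**
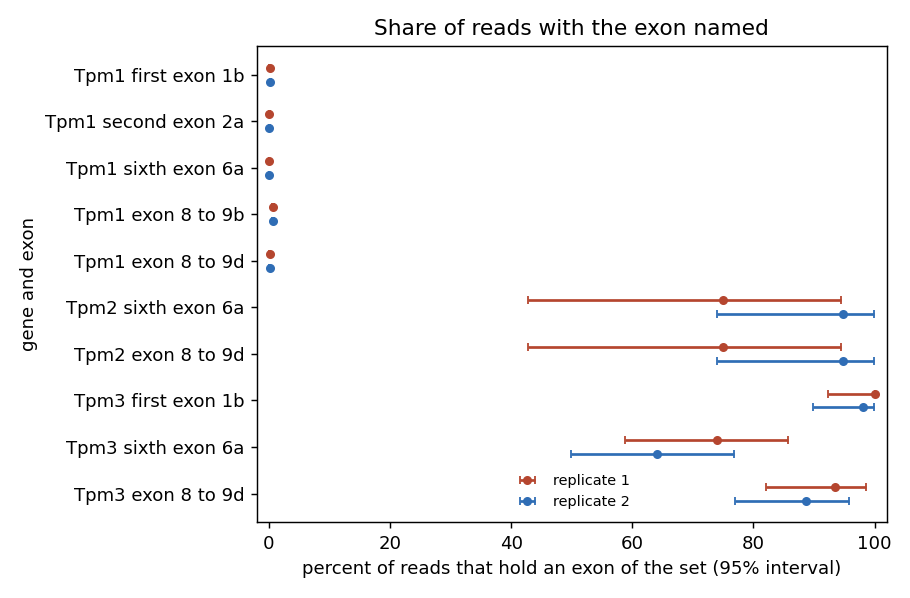
Percent of reads with the exon named, among reads that hold an exon of the same set, in replicate 1 and replicate 2, with 95% Clopper-Pearson intervals. The Tpm1 points lie below 1%, while the Tpm2 and Tpm3 points for 1b, 6a and 9d lie between 64.2% and 100%.

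Over the family, the long and the short forms came mainly from different genes. Of reads with exon 1a, Tpm1 gave 7929 of 7940 in replicate 1 and 10538 of 10558 in replicate 2. Of the 165 and 189 reads with exon 1b, Tpm4 gave 110 (66.7%, 58.9 to 73.8) and 119 (63.0%, 55.7 to 69.9), Tpm3 gave 46 (27.9%) and 51 (27.0%), and Tpm1 gave 9 (5.45%, 2.52 to 10.1) and 19 (10.1%, 6.16 to 15.3). Short forms with the 9d ending were thus led by Tpm4, with 110 of 158 and 119 of 174 reads.

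No tropomyosin model was called for a different share of its gene between the libraries. Fisher's exact test of a model's share of its gene was run on models with a sum of 10 or more reads, in genes that reached 20 reads in replicate 1 and in replicate 2, and 483 of 8577 models (5.63%) were called after Benjamini-Hochberg adjustment. Of 21 tropomyosin models tested, 18 of Tpm1, 2 of Tpm3 and 1 of Tpm4, 0 were called and 0 had an unadjusted p under 0.05. For 21 models, most of them of Tpm1, 0 calls is near the share over all models, so it says little about the family. The smallest adjusted p was 0.474, for Tpm1 models that begin in exon 5. Tpm1-205 had an adjusted p of 0.907 and Tpm1-207 of 1 in the same exact test. Tpm2, with under 20 reads in replicate 1, was not tested.

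Tpm1 molecules were mostly read to their first exon. An annotated first exon was held by 97.0% (96.6 to 97.4) of Tpm1 reads in replicate 1 and 96.9% (96.6 to 97.2) in replicate 2, and by 98.2% and 94.4% of Tpm4 reads. Incomplete models, which hold part of a known chain, took 2.75% (2.41 to 3.13) and 2.87% (2.57 to 3.20) of Tpm1 reads, against 12.6% and 14.9% over all annotated genes. Set beside the 94 genes that reached 1000 reads in replicate 1 and in replicate 2, Tpm1 lay in the lower part: its incomplete share ranked 59th and 58th from the top, and the medians were 4.38% and 5.45%. Among the 19 of these with a leading transcript of 1000 to 1500 nt, the range that holds Tpm1-205 at 1208 nt, the medians were 4.21% and 5.16% and Tpm1 ranked 13th in each library.

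The incomplete Tpm1 reads did not thin out evenly along the chain. Models whose most upstream exon is exon 5 had 71 reads (0.868% of the gene) in replicate 1 and 125 reads (1.15%) in replicate 2, the most of any exon in each library. Those that begin in exon 3 had 33 and 32 reads, and those that begin in exon 2b had 31 and 33. Exon 6b, the next exon downstream of exon 5, had 8 and 13 reads. Where within the exon each read began was not analysed here.

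**Figure D4:**
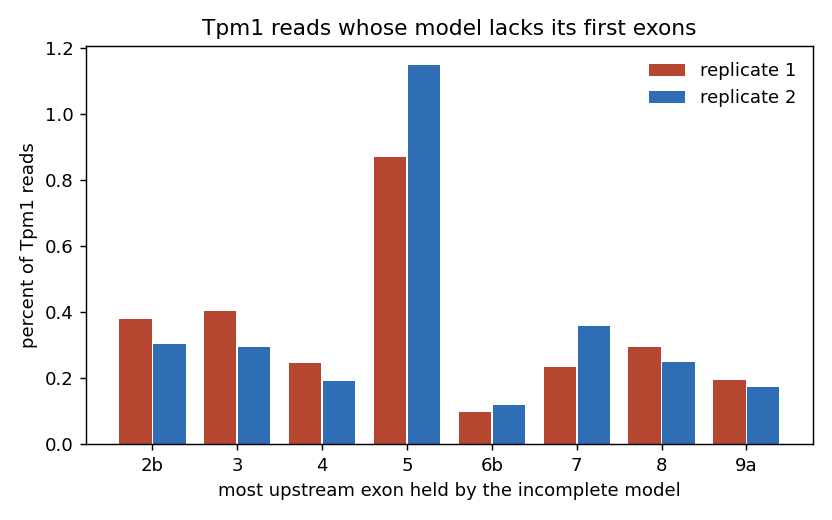
Percent of all Tpm1 reads on incomplete models, by the most upstream exon the model holds, in replicate 1 (left bars) and replicate 2 (right bars). Exon 5 stands at 0.868% and 1.15%, above every other exon.

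Most reads on unannotated Tpm1 introns differed from annotated splicing by a few bases. New spliced Tpm1 models numbered 41, with 16 found in both libraries and 23 resting on a single read in all. Of their introns that are not in the annotation, 16 had ends within 10 nt of annotated ends, with 60 reads in replicate 1 and 93 in replicate 2, and 1 of the 16 changed exon length by a multiple of 3. The remainder paired known ends in a new way (3 introns, 4 and 2 reads) or lay further away (17 introns, 9 and 23 reads).

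The intron with the most reads ended 2 bases into exon 4. It was held by 25 Tpm1 reads (0.305%) in replicate 1 and 47 (0.431%) in replicate 2, and the model that differs from Tpm1-205 by this alone had 23 and 45 reads (Fisher's exact test, adjusted p = 0.705). The same shift of 2 bases at exon 4 was found in Tpm4, with 2 of 112 and 1 of 126 reads, and in Tpm3, with 0 of 47 and 1 of 54. No Tpm2 read had it, among 13 and 20. The join of exon 3 to exon 4 is shown for the 4 genes, 15 bases on each side from the GENCODE M21 transcripts, with the first 2 bases of exon 4 in capitals. Tpm1 and Tpm2 are read on the minus strands of chromosomes 9 and 4, Tpm3 and Tpm4 on the plus strands of chromosomes 3 and 8.
Tpm1 exon 3 to exon 4: agatgagagtgagagAGgcatgaaagtcat
Tpm2 exon 3 to exon 4: ggatgagagcgagagAGgaatgaaggtcat
Tpm3 exon 3 to exon 4: tgatgagagtgagagAGgtatgaaggtgat
Tpm4 exon 3 to exon 4: tgatgagagtgagagAGgcatgaaggtaat

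In all 4 genes exon 4 begins with AG, the letters that end nearly all introns. Over the family 11 unannotated introns ended inside an annotated exon within 10 nt of its start, and in all 11 the exon bases left out ended in AG, with 32 reads in replicate 1 and 64 in replicate 2. Of 3 introns that began inside an annotated exon within 10 nt of its end, 2 began with GT. Bases at intron ends that lie outside annotated exons were not analysed here. Whether these reads are spliced RNA or misplaced alignments was not tested.

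Other shifted Tpm1 sites had fewer reads. An intron that starts 5 nt beyond the end of exon 7 had 7 and 12 reads, and introns that start 4 nt beyond exon 2b or exon 4 had 7 and 5 reads and 5 and 5 reads. One that starts 10 nt inside exon 4 had 6 and 2 reads. At exon 9a, an intron ending 5 nt inside the exon had 1 and 7 reads and one ending 2 nt before it had 3 and 4. A model in which an intron starts 24 nt inside exon 7 and ends 34 nt inside exon 8 had 3 and 2 reads. None of these named shifts changes exon length by a multiple of 3, and each was found in both libraries.

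**Figure D5:**
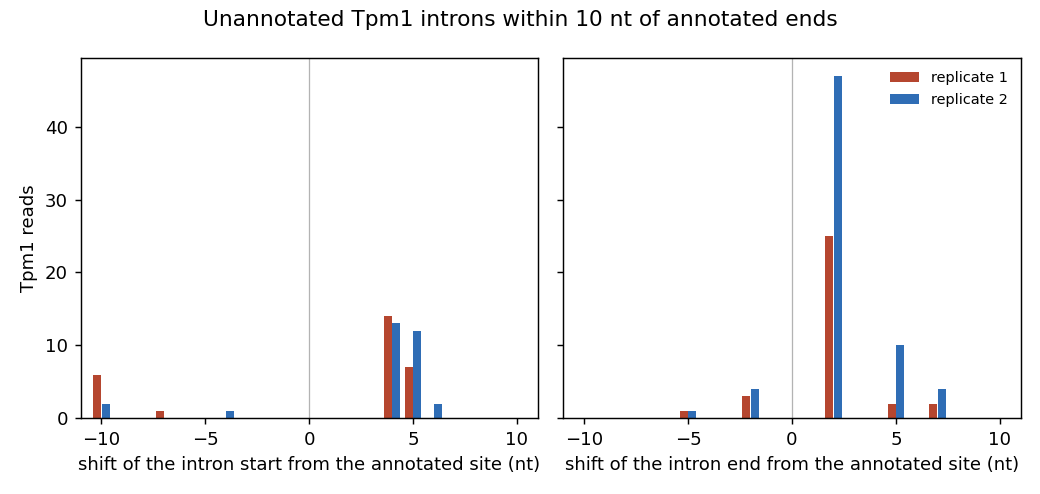
Tpm1 reads in replicate 1 and replicate 2 on unannotated introns within 10 nt of annotated ends, by the shift in nt of the intron start (left) and intron end (right); positive shifts lie downstream. The intron end at 2 nt has 25 and 47 reads, and no other shift passes 14.

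A new internal exon of Tpm1 was found in replicate 2 alone. It spans chr9:67030203-67030297 (95 nt), lies between exon 8 and exon 9a, and was joined to exon 8 and exon 9b in place of 9a in 5 reads, against 0 in replicate 1. A model with a 91 nt form of it, which shares its junction to exon 9b, had 1 more read in replicate 2. The stretch overlaps the annotated noncoding transcript Tpm1-221. As a share of Tpm1 reads, the 95 nt model had 95% intervals of 0 to 0.0451% in replicate 1 and 0.0149 to 0.107% in replicate 2, which overlap. At 0 and 5 reads it lay under the 10 reads that the isoform test asks for, so the libraries were not compared here.

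The counts of Tpm1, Tpm2 and Tpm4 were little exposed to near-identical copies. Copies were sought as transcripts of other annotated genes with an alignment of 90% identity that spans 50% or more of whichever transcript is shorter. They were found for Tpm3 (8 genes) and Tpm4 (1 gene), and 1 of these 9 had reads. This was Tpm3-rs7, a single-exon copy of Tpm3 on chromosome 14 (113314608 to 113316754) that matches a Tpm3 transcript at 99.1% over 2108 bases, with 15 reads in replicate 1 and 14 in replicate 2. Its reads are uncertain, as those of a spliced Tpm3 molecule and of the copy differ by few bases. Of the Tpm3 reads 46 of 47 and 53 of 54 were on spliced models. On the opposite strand, models overlapping the genes had 5 and 4 reads at Tpm1, 1 and 7 at Tpm3 and 1 and 0 at Tpm4.

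The level of the family was set beside its partners on the thin filament. Of 28 listed thin filament genes 22 could be tested, and 2 were called higher and 2 lower in replicate 1. Over all genes tested 3.36% were called, and 338 of 4032 at a minimum of 50 reads. The list was not matched to other genes by depth, so these shares do not show an excess in it. In replicate 1 Tnnc1 (cardiac troponin C, the calcium sensor) had 7951 CPM, against 8631 CPM in replicate 2, log2 -0.12. Actc1 (cardiac actin) had 3310 and 2976 CPM, log2 0.15, Acta1 (skeletal actin) 614 and 856 CPM, log2 -0.48, and Actg1 (cytoplasmic gamma actin) 260 and 184 CPM, log2 0.49. These 4 were the ones called, in the exact binomial test, and they moved in both directions. With TMM factors or DESeq2 size factors the 2 lower genes were called and neither of the 2 higher ones. Tnni3 (cardiac troponin I) had 742 and 744 CPM. The list's median log2 ratio was 0.21, beside 0.06 over all genes tested.

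Tpm1 was therefore read more often than any listed actin or troponin gene in each library, 11880 and 10851 CPM against 7951 and 8631 CPM for Tnnc1. The 3 genes with levels closest to it over the 2 libraries, by distance on log2(CPM + 1), were Atp5b (12055 and 12076 CPM), Cox4i1 (10208 and 11927 CPM) and Fabp3 (10560 and 13579 CPM). For Tpm2, 11 genes had exactly its 13 and 20 reads, so no closest genes could be named.

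Of 22 listed splicing factors, proteins that govern alternative exons, 19 were tested between the libraries. By the exact binomial test 0 were called under any of the 3 scalings (all mouse reads, TMM, DESeq2), with 1 at an unadjusted p under 0.05. Over all genes tested 3.36% were called with all mouse reads as the total. For 19 genes 0 calls is near that share, so it says little about these factors. Some had few reads, such as Rbfox1 with 12 and 10. The highest by the mean of both libraries were Qk at 283 and 293 CPM, Rbm24 at 200 and 201 CPM, Mbnl2 at 139 and 140 CPM and Srsf3 at 81.3 and 65.7 CPM. Ptbp1, a repressor of muscle exons in Tpm1 and Tpm2 studied in rat and human cells, had 6 and 11 reads. Esrp1 and Esrp2, factors of epithelial cells, had 0 reads in both libraries. In tissue RNA fewer cells of a type and less RNA per cell cannot be told apart.

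Markers of other cell types were read beside the short tropomyosin forms. Smooth muscle and pericyte markers (10 of 10 with reads) summed to 3118 CPM in replicate 1 and 2744 CPM in replicate 2, of which Des, also a cardiomyocyte gene, held 2683 and 2270. Fibroblast markers (9 of 9) summed to 788 and 625 CPM and endothelial markers (8 of 8) to 273 and 332 CPM, while cardiomyocyte markers (8 of 8) summed to 41091 and 42823 CPM. Among the smooth muscle genes Acta2 had 66.8 and 65.7 CPM and Myh11 10.2 and 15.9 CPM, next to 18.9 and 19.9 CPM for Tpm2. Of 8 skeletal muscle markers Myh1, Myh2, Myh4, Actn3 and Mylpf were at 0 reads, while Tnnt3 and Tnni2 had 1 read each in all and Ckm, a gene of heart as well, had 5889 and 6578. Blood markers (6 of 6) summed to 7645 and 6995 CPM. The part of these cell types in the Tpm2, Tpm3 and Tpm4 reads was not tested.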

How the data were processed

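Per library, the authors deposited unnormalized read counts for every transcript model and a file of the models' exons. Per the deposited text descriptions, the build is mm10 and known models come from GENCODE M21; new models carry the name TALON in the annotation files' source column. Which aligner and read filters were used, and in which versions, is not given in the sources used here. Replicate 1 held 699529 reads (688861 mouse) and replicate 2 held 1019974 (1003999 mouse). SIRV spike-ins, named in the labels, were not used here.

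Gene reads were summed over all models of a gene, and CPM is per 1000000 mouse reads, with a pseudocount of 1 CPM in log2 ratios. New models were matched between libraries by intron chain, and exon names were set from annotated exons. Single-exon new models of a gene and class were pooled. With 1 group of 2 libraries there are no residual degrees of freedom for a quasi-likelihood test, so exact binomial and Fisher tests with Benjamini-Hochberg adjustment compare the libraries, not conditions. They were also run on simulated data drawn with counting error only. False calls from other variation between libraries could not be seen there. Intervals are 95% Clopper-Pearson intervals. The tools were Python 3.11.15, scipy 1.17.1, pandas 2.3.3, numpy 2.4.6, matplotlib 3.10.9, blastn 2.17.0, and, for scaling factors alone, R 4.3.3 with edgeR 4.0.16 and DESeq2 1.42.0. Sequences come from GENCODE M21 transcripts.

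The members, lists and tests were chosen with earlier results of these data known. Named were all members, known transcripts with at least 1% of the gene in a library or a sum of 10 reads, new spliced models with a sum of at least 5 reads, called and highest listed thin filament and splicing genes, and the 3 genes nearest the highest and lowest member; Tpm1-201, Tpm1-219, Ptbp1, Esrp1, Esrp2, chains with 2a and 9a, and models of under 5 reads in Tpm3 and Tpm4 were named after their values were seen. Alternatives covered scaling, count minimums, the models counted, spike-ins in the total and leaving out each library.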

Additional observations from a re-analysis of the deposited data

How the results depend on the processing

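Tpm1 kept its direction and its call under the 6 alternatives run for the gene test, with log2 ratios from 0.07 (DESeq2 size factors, adjusted p = 0.0302 by the exact binomial test) to 0.13. No other tropomyosin gene was called under any of them (Tpm2 was under the minimum of 50 reads), and 0 tropomyosin models were called under the 3 alternatives of the isoform test, where 1 model had an unadjusted p under 0.05 without incomplete and genomic models. Over all models, 6 were called without incomplete and genomic models and 192 at a minimum of 50 reads, against 483 (exact Fisher tests); the first tests fewer models (5039), and beyond that the cause was not tested. Without incomplete and genomic models the mean level was 13608 CPM for Tpm1, 21.6 for Tpm2, 73.1 for Tpm3 and 173 for Tpm4, since the total is then smaller; the leading shares were 98.1% for Tpm1-205 and 96.1% for Tpm4-201. With known transcripts alone, Tpm1-205 held 99.2%, Tpm3-201 95.4% and Tpm4-201 100%, exon 1a 99.9% of Tpm1, and exons 6a and 9d each 95.4% of Tpm3. For 6a the unannotated chain with 6b then drops out; for 9d it is the new models with 9a that drop out. No level moved by more than its spread when spike-ins were added to the total. With 2 libraries, leaving one out gives the value of the other, which says nothing about stability.

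No paired analysis was possible because the series holds 1 group. Depth limits Tpm2 and Tpm3 most: with 13 to 54 reads per library, the share of Tpm3 reads with exon 6a had intervals of 58.9 to 85.7% and 49.8 to 76.9%.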
